A study of Mus musculus with 12 samples.

Results

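The genes described here are the interferon-induced families and the interferon regulatory factors (IRFs) of mouse liver, followed across a steatohepatitis diet and 2 infused fatty acids. They were taken by symbol from the table of read counts: Ifit, Ifitm, Oas, Oasl, Gbp, Mx, Ifi and Irgm genes with a number in the name, Isg15, and Irf genes, without symbols that end in -ps. GENCODE M21 marks Gbp11, Mx2 and Oas1b among them as polymorphic pseudogenes and Ifi30 as a processed transcript. The genes reported are 62 of 24983, made up of 8 IRF, 6 Ifit, 6 Ifitm, 9 OAS, 2 Mx, 11 GBP, 2 IRGM, 10 Ifi200 and 7 other Ifi genes with Isg15. No measured value entered the choice. Of the 62, 56 had enough reads for a test. Irf4, Ifi214, Ifit1bl2, Ifitm5, Ifitm10 and Oas1h did not.

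The 12 livers came from C57BL/6J mice, 3 in each of 4 groups told apart by ear tag, and each liver gave 1 library. Chow mice ate the standard diet over 24 weeks. The other mice ate a NASH diet (NASH is nonalcoholic steatohepatitis, a fatty and inflamed liver) high in saturated and trans fat, fructose and cholesterol, with 40% of calories as fat, over a period of 24 weeks. An osmotic minipump under their skin delivered polyethylene glycol (PEG, the vehicle), oleic acid in PEG (OA) or nitro-oleic acid in PEG (OA-NO2), the fatty acids at 5 mg/kg/day. OA is a plain unsaturated fatty acid, and OA-NO2 is the same acid with an added nitro group. All pump-bearing groups share the diet and PEG, and no pump is mentioned for the chow mice, so diet and pump cannot be told apart in any comparison with chow. The libraries are of whole liver, in which fewer cells of a type and less RNA per cell cannot be told apart.

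Interferons are cytokines of antiviral defence. Type I interferons signal through IFNAR1 and IFNAR2 to a complex with IRF9, which binds interferon-stimulated response elements, and interferon-gamma acts through its own receptor and other DNA sites. Among the products, OAS enzymes make the second messenger that switches on RNase L, IFIT proteins bind foreign RNA, IFITM proteins act at membranes against virus entry, Mx proteins and guanylate-binding proteins (GBPs) are large GTPases, IRGM proteins are small GTPases that act on pathogen vacuoles, and Ifi200 proteins sense or bind DNA. In liver, hepatocytes, Kupffer cells, recruited macrophages and dendritic cells can all express such genes.

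Total counts per library ran from 8462590 (chow replicate 1) to 20613777 (vehicle replicate 3). The 62 genes took 0.0823%, 0.0943% and 0.108% of the reads in chow, 0.148%, 0.136% and 0.133% with vehicle, and for OA 0.135%, 0.144% and 0.130%. In the OA-NO2 livers they took 0.113%, 0.136% and 0.105%. After TMM scaling, which takes most genes to be unchanged between libraries, their summed CPM (counts scaled to a library of 1000000 reads) were 1180 ± 123 for chow, 1210 ± 87.5 for vehicle, 1265 ± 98.7 for OA and 1182 ± 195 for OA-NO2 (mean ± SD, n = 3 each). The rise in the share of reads was therefore absent on the scale used below, and changes are given relative to the TMM scaling. With plain totals in its place, the median of all genes moved by 0.51 (log2) between vehicle and chow, 0.42 between OA and chow and 0.34 between OA-NO2 and chow. The markers of hepatocytes were present in all libraries. OA replicate 3 stood apart from the other OA livers in markers of macrophages and monocytes (298 summed CPM against 749 and 618), and vehicle replicate 1 from the other vehicle livers in markers of cholangiocytes (78.8 against 513 and 451.5).

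Promoter sequences are shown first because they carry the element by which many of these genes are known to be switched on, and because members with and without that element can be compared. RefSeq promoter windows (GRCm38.p6, 250 bases before each annotated start) were matched by symbol for 48 of the 62 genes. An IRF-type core, GAAANNGAA on either strand, was present in 27 of the 48 (56.2%), against 2211 of 27025 genes (8.18%) with windows of the same length. By window, where a gene can have several, the shares were 28 of 58 (48.3%) and 7.13% of 32851. A STAT-type core, TTCNNNGAA, a palindrome that reads alike on both strands, was present in 9 of the 48 (18.8%), against 8.13% of all genes with a window. Overlapping matches were counted singly, and paralogs share promoter sequence. The stretches below are the 120 bases just before the start, 5′ to 3′ on the strand of the gene, with the IRF-type cores in capitals. They belong to the 6 genes with such a core that had the lowest p between vehicle and chow among the genes named by rule, followed by Isg15 and Ifit1, which were added after their values had been seen.
Ifi207, chr1:173741810-173741929, minus strand: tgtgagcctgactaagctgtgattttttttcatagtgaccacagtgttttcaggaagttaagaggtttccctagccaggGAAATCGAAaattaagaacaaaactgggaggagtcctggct
Ifi211, chr1:173913047-173913166, minus strand: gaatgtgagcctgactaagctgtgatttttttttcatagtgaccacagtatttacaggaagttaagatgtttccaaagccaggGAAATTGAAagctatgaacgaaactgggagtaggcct
Ifi203, chr1:173942493-173942612, minus strand: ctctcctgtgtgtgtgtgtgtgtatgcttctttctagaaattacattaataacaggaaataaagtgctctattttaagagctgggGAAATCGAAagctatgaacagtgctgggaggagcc
Oas3, chr5:120777660-120777779, minus strand: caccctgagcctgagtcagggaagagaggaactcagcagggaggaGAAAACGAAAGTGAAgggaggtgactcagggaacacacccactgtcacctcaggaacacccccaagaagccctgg
Oas1a, chr5:120907526-120907645, minus strand: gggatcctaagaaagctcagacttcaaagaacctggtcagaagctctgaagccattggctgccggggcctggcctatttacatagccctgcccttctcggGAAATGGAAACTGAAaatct
Gbp2, chr3:142620543-142620662, plus strand: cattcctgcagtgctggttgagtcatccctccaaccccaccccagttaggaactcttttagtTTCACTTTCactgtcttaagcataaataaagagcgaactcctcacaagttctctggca
Isg15, chr4:156200819-156200938, minus strand: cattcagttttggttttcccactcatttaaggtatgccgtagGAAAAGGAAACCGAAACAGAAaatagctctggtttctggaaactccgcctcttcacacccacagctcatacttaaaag
Ifit1, chr19:34640769-34640888, plus strand: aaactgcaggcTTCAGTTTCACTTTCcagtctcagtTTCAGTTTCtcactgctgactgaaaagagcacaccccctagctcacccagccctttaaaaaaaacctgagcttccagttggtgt
Ifi207, Ifi211 and Ifi203 lie in 1 cluster and carry a single core 41, 37 and 35 bases before the start. Oas3 has 2 overlapping cores 75 and 69 bases before the start, and Oas1a 2 at 20 and 14. In Gbp2 and Ifit1 the cores run on the other strand. Isg15 and Ifit1 have more cores (3 each) than any of these, and neither passed the test in any comparison of the main fit.

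**Figure D1:**
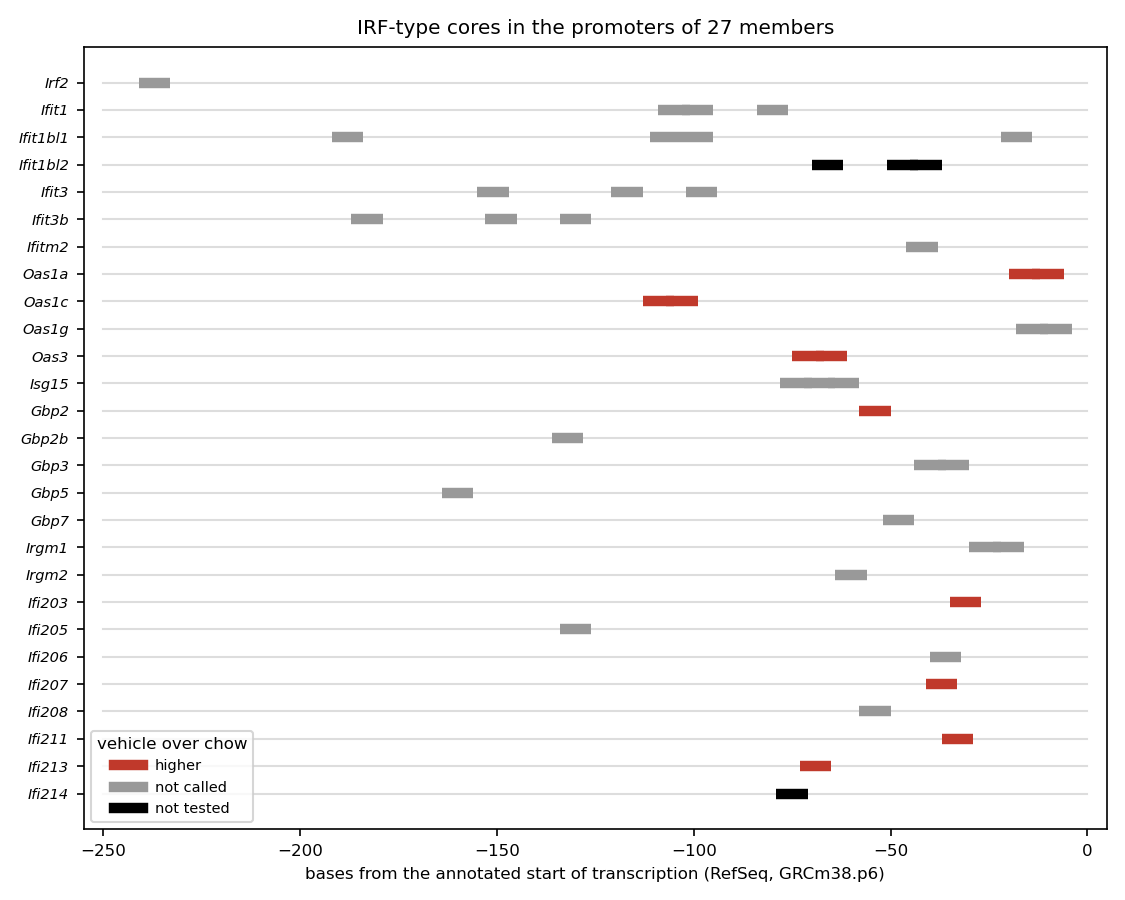
Positions of the IRF-type core in the 27 genes that hold it. The x axis gives bases from the annotated start (0), each row is a gene, and colours give the call between vehicle and chow (red higher, grey not called, black not tested). In the 8 genes called higher, cores start between 113 bases (Oas1c) and 14 bases (Oas1a) before 0, and grey rows lie among them.

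The first comparison asks what the NASH diet with a vehicle pump did to these genes. In edgeR's quasi-likelihood test over 14469 genes, with Benjamini-Hochberg adjustment and a call at an adjusted p under 0.05, 18 of the 56 were higher with vehicle than with chow (32.1%) and 1, Mx2, was lower. Over all genes, 11.1% were called higher and 8.16% lower. The median log2 fold change was 0.35 for the 56 genes and -0.01 for all. The rises lay in the Ifi200 cluster (6 of 9 tested), the OAS family (5 of 8) and the other Ifi genes (3 of 7: Ifi27l2a, Ifi27l2b and Ifi30), with Gbp2, Ifit2, Ifitm1 and Irf8 as single genes of their families. Isg15, Ifit1, Ifit3, Mx1, Irf1, Irf7, Irf9, Irgm1 and Irgm2 did not pass the test as higher. With plain totals, 31 of the 56 and 38.1% of all genes were called higher and 0 and 1.71% lower, and Irf1 and Irf7 were then among those higher. The plot of fold changes by family shows this split.

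**Figure D2:**
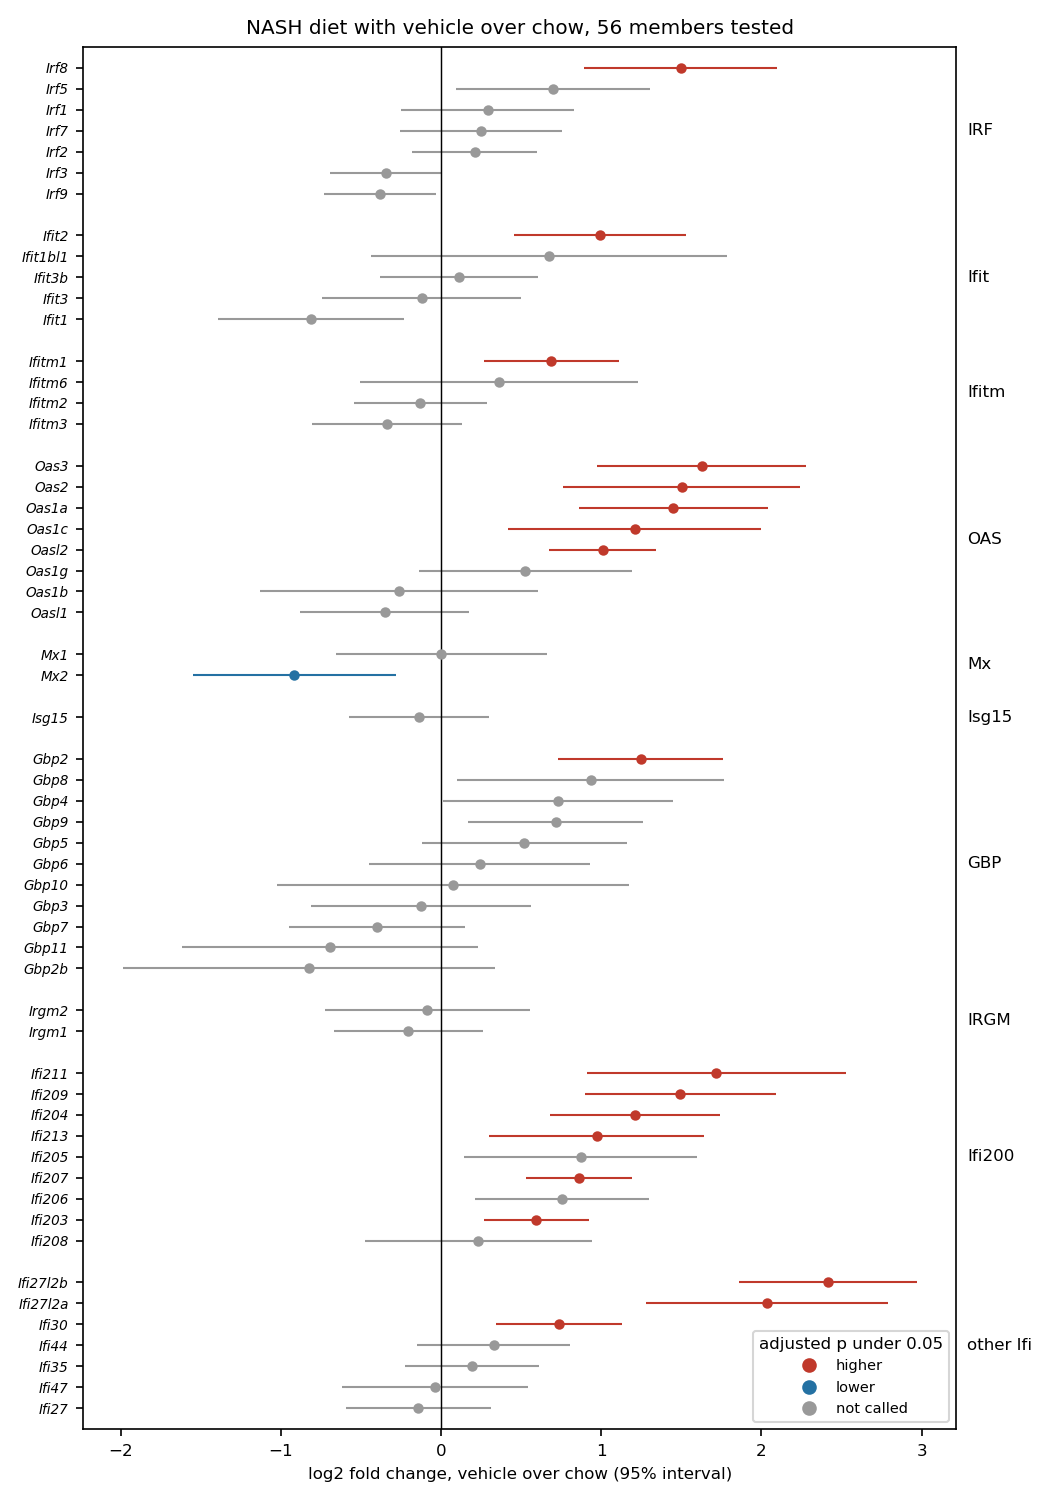
Log2 fold change of each of the 56 tested genes between vehicle and chow (x axis), with 95% intervals as lines. Rows are genes grouped by family, and colours give the call. Points of the Ifi200 family all lie right of 0, from 0.23 for Ifi208 to 1.72 for Ifi211, while those of the GBP and Ifit families lie on both sides.

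Among the 7 tested IRFs, the transcription factors of the system, Irf8 was the one called. Irf8, a factor of macrophages and dendritic cells (chr8:120736358-120756694), stood at 3.59, 4.06 and 7.11 CPM in chow and at 14.1, 14.1 and 14.5 CPM with vehicle. All vehicle livers were above all chow livers, and the rise was 1.50 ± 0.28 on the log2 scale (± SE; adjusted p = 0.0046). This call held in every alternative run.

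The IRFs that carry interferon signals did not pass the test. Irf7, the amplifier of type I interferon production, had 41.5, 56.6 and 48.7 CPM in chow and 81.3, 42.2 and 51.6 CPM with vehicle. The value of 81.3 is 1 liver, vehicle replicate 1, and the groups overlapped (log2 fold change 0.25 ± 0.23, adjusted p = 0.477). Irf9, a DNA-binding subunit of the complex downstream of IFNAR1 and IFNAR2, had a log2 fold change of -0.38 ± 0.16 (adjusted p = 0.115), and its exons overlap those of Rnf31 on the same strand. Irf1, induced by interferon-gamma, had 0.29 ± 0.25 (adjusted p = 0.436), and Irf2, its antagonist, 0.21 ± 0.18 (adjusted p = 0.436). Irf3, the factor activated by viral sensors, had -0.35 ± 0.16 (adjusted p = 0.15), and Irf5, a factor of myeloid cells, 0.70 ± 0.28 (adjusted p = 0.0985). Exons of Irf3, Irf5 and Irf7 overlap genes on the other strand, and how strand was used in the counting is not given in the sources used here. Irf4 was at or below 1.03 CPM in every liver.

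Of the Ifit genes, which lie together at chr19:34550694-34650009, Ifit2 alone was called. It stood at 5.30, 9.91 and 9.09 CPM in chow and at 14.8, 17.3 and 17.4 CPM with vehicle, with no overlap. The log2 fold change was 0.99 ± 0.25 (adjusted p = 0.0172), and the call was lost without chow replicate 1 (adjusted p = 0.0609), vehicle replicate 2 (0.0503) or vehicle replicate 3 (0.0571). Its neighbour Ifit1 went the other way in value, from 31.0, 66.9 and 56.9 CPM to 35.2, 30.5 and 23.2 CPM. The groups overlapped through chow replicate 1, and the log2 fold change of -0.81 ± 0.27 did not pass (adjusted p = 0.051). The call for Ifit1 depends on settings, since it passed as lower with DESeq2, without the filter on low counts, and without chow replicate 1. Ifit3 (-0.12), Ifit3b (0.11) and Ifit1bl1 (0.67) were not called, and Ifit3 and Ifit3b are near-identical copies between which reads could be split.

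Ifitm1 was the called gene of the Ifitm family, all but Ifitm10 within chr7:140948958-141017924. It had 8.11, 5.99 and 6.34 CPM in chow and 10.6, 11.7 and 10.3 CPM with vehicle, with no overlap (log2 fold change 0.69 ± 0.20, adjusted p = 0.0276). Without chow replicate 2 or 3, or any of the vehicle livers, it was not called, with adjusted p from 0.051 without vehicle replicate 1 to 0.102 without chow replicate 2. Ifitm3, which blocks virus entry, was the most abundant of the 62 genes per exon length in chow, at 485 CPM per kb, against 19.0 CPM per kb for Isg15. It had 375, 237 and 375 CPM in chow and 280, 256 and 246 CPM with vehicle (log2 fold change -0.34 ± 0.22, adjusted p = 0.296). Ifitm2 (-0.13) and Ifitm6 (0.36) were not called either.

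The OAS family gave 5 rises among 8 tested genes, with a median log2 fold change of 1.11. Oas1a, a synthase, stood at 3.59, 2.61 and 1.54 CPM in chow and at 8.11, 5.06 and 7.02 CPM with vehicle (1.45 ± 0.27, adjusted p = 0.00484). Oas3, the largest synthase, went from 1.09, 1.51 and 1.99 CPM to 6.20, 3.73 and 4.82 CPM (1.63 ± 0.30, adjusted p = 0.0046). Both are shown above with 2 overlapping cores, and in both genes every vehicle liver was above every chow liver. Oas2, another synthase of the same cluster, rose from 0.780, 1.03 and 1.35 CPM to 3.17, 3.89 and 2.28 CPM (1.50 ± 0.34, adjusted p = 0.0113). Oasl2, an OAS-like gene some distance away at chr5:114896936-114912234, rose from 4.52, 5.37 and 5.76 CPM to 10.7, 10.3 and 10.9 CPM (1.01 ± 0.16, adjusted p = 0.00254). These 4 calls held with each library left out in turn and in all alternatives run. Oas1c rose less firmly, from 1.56, 1.03 and 0.960 CPM to 2.097, 2.72 and 3.09 CPM (1.21 ± 0.37, adjusted p = 0.036). That call was lost without chow replicate 2 (adjusted p = 0.114), chow replicate 3 (0.107), vehicle replicate 2 (0.0814) or vehicle replicate 3 (0.117). Oasl1, the neighbour of Oasl2, had -0.35 ± 0.25, and Oas1g (0.53) and Oas1b (-0.26) were not called. Oas1a to Oas3 span chr5:120730333-120907521 and include close copies, so reads could be split between Oas1a and Oas1g.

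Mx2 fell, while Mx1 gave a log2 fold change near 0. Mx2 had 5.15, 5.64 and 9.92 CPM in chow and 4.57, 4.10 and 2.49 CPM with vehicle, without overlap but close to it. It fell by 0.92 ± 0.30 (adjusted p = 0.045), and the call was lost without chow replicate 2 (adjusted p = 0.059), chow replicate 3 (0.216), vehicle replicate 2 (0.0827) or vehicle replicate 3 (0.165), with plain totals (0.292) and with the 2 groups fitted alone (0.0651). Mx1, an antiviral GTPase that inbred mouse strains largely carry in a defective form, had 2.65, 2.27 and 3.46 CPM against 2.70, 3.52 and 2.24 CPM (0.00 ± 0.31). Isg15, the ubiquitin-like modifier often read as a marker of interferon signalling, had 12.8, 14.9 and 15.4 CPM in chow and 14.96, 11.9 and 12.5 CPM with vehicle. The groups overlapped, and the log2 fold change was -0.14 ± 0.20 (95% interval from -0.57 to 0.30, adjusted p = 0.663).

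Gbp2 was the called GBP among 11, all tested. It had 6.86, 9.70 and 8.71 CPM in chow and 21.1, 18.4 and 21.1 CPM with vehicle, a clear gap between the groups (1.25 ± 0.24, adjusted p = 0.00522). The other 10 had log2 fold changes from -0.83 (Gbp2b) to 0.93 (Gbp8), and 7 of the 11 were positive. Of the chromosome 3 cluster (chr3:142493978-142638008), Gbp7 had 25.9, 26.6 and 23.4 CPM in chow and 22.8, 17.1 and 17.7 CPM with vehicle, the opposite order to Gbp2 (-0.40 ± 0.26, adjusted p = 0.29). Gbp3 (-0.13) and Gbp5 (0.52) were not called. Of the chromosome 5 cluster (chr5:105014150-105346472), Gbp9 came nearest at 0.71 ± 0.25 (adjusted p = 0.0642), and Gbp4 (0.73), Gbp6 (0.24), Gbp10 (0.08) and Gbp11 (-0.69) were not called. Gbp4, Gbp8 and Gbp9 share exons in the annotation, and Gbp6 and Gbp10 share exons with Gm43302, so single values in that cluster are uncertain. Irgm1 (-0.20) and Irgm2 (-0.09), effectors of interferon-gamma, had overlapping groups, and Irgm2 shares exons with Igtp.

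Of the 9 tested Ifi200 genes, 6 rose, and all 9 had positive log2 fold changes, with a median of 0.87. They fill chr1:173468485-174031810, 563 kb with 10 of the 62 genes. Ifi211, a DNA-binding family member, rose most, from 0.780, 1.24 and 1.34 CPM in chow to 5.59, 2.77 and 3.21 CPM with vehicle (1.72 ± 0.38, adjusted p = 0.00924). Ifi209 rose from 1.72, 3.85 and 2.88 CPM to 7.55, 9.54 and 7.73 CPM (1.49 ± 0.28, adjusted p = 0.00452). Ifi204, linked to DNA sensing in mouse macrophages, rose from 5.93, 10.9 and 11.2 CPM to 19.5, 23.5 and 23.5 CPM (1.21 ± 0.25, adjusted p = 0.00683). In each of these the groups were apart, with chow replicate 1 the lowest liver of all. Ifi207 rose from 7.33, 7.29 and 6.60 CPM to 11.3, 14.8 and 12.4 CPM (0.86 ± 0.15, adjusted p = 0.00393). The calls of these 4 genes held in every alternative run. Ifi203 rose from 9.83, 13.4 and 12.8 CPM to 17.2, 20.3 and 17.5 CPM (0.59 ± 0.15, adjusted p = 0.0181), a call lost without chow replicate 1 (adjusted p = 0.0694) or vehicle replicate 2 (0.0687). Its exons overlap those of Mndal, another gene of this family. Ifi213 rose from 1.72, 1.58 and 2.18 CPM to 4.75, 3.52 and 2.58 CPM (0.97 ± 0.31, adjusted p = 0.0442), and was not called on leaving out 1 of chow replicates 1 to 3 (adjusted p = 0.108, 0.145 and 0.0575) or vehicle replicates 1 and 2 (0.155 and 0.0872), or without the filter on low counts (0.0506). Ifi205 (0.87, adjusted p = 0.0864) and Ifi206 (0.75, adjusted p = 0.052) had no overlap between the groups and missed the threshold, and Ifi208 had 0.23 with overlap. Since the family is a set of close paralogs, reads may be shared between them.

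The largest rises of all 56 were in the small Ifi27-like genes of chromosome 12, whose products are hydrophobic membrane proteins. Ifi27l2b (chr12:103450898-103457223) had 9.98, 6.19 and 7.43 CPM in chow and 40.6, 40.0 and 42.9 CPM with vehicle, a 5.34-fold rise (2.42 ± 0.26, adjusted p = 0.000495). Ifi27l2a (chr12:103442167-103443680) had 4.68, 7.78 and 4.93 CPM against 21.3, 25.6 and 25.4 CPM, 4.09-fold higher (2.03 ± 0.35, adjusted p = 0.00365). Vehicle livers were close together in both genes. Their neighbour Ifi27 was flat by comparison, with 100, 119 and 104 CPM in chow and 122, 74.9 and 96.5 CPM with vehicle (-0.14 ± 0.21, adjusted p = 0.674). Ifi30, the lysosomal thiol reductase of antigen processing, rose from 18.3, 14.8 and 21.6 CPM to 26.1, 36.9 and 28.0 CPM (0.73 ± 0.18, adjusted p = 0.0162). The Ifi30 call was lost without chow replicate 2 (adjusted p = 0.0693) or vehicle replicate 2 (0.0676). Ifi35 (0.19), Ifi44 (0.33) and Ifi47 (-0.04) were not called, and Ifi47 shares exons with Olfr56.

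**Figure D3:**
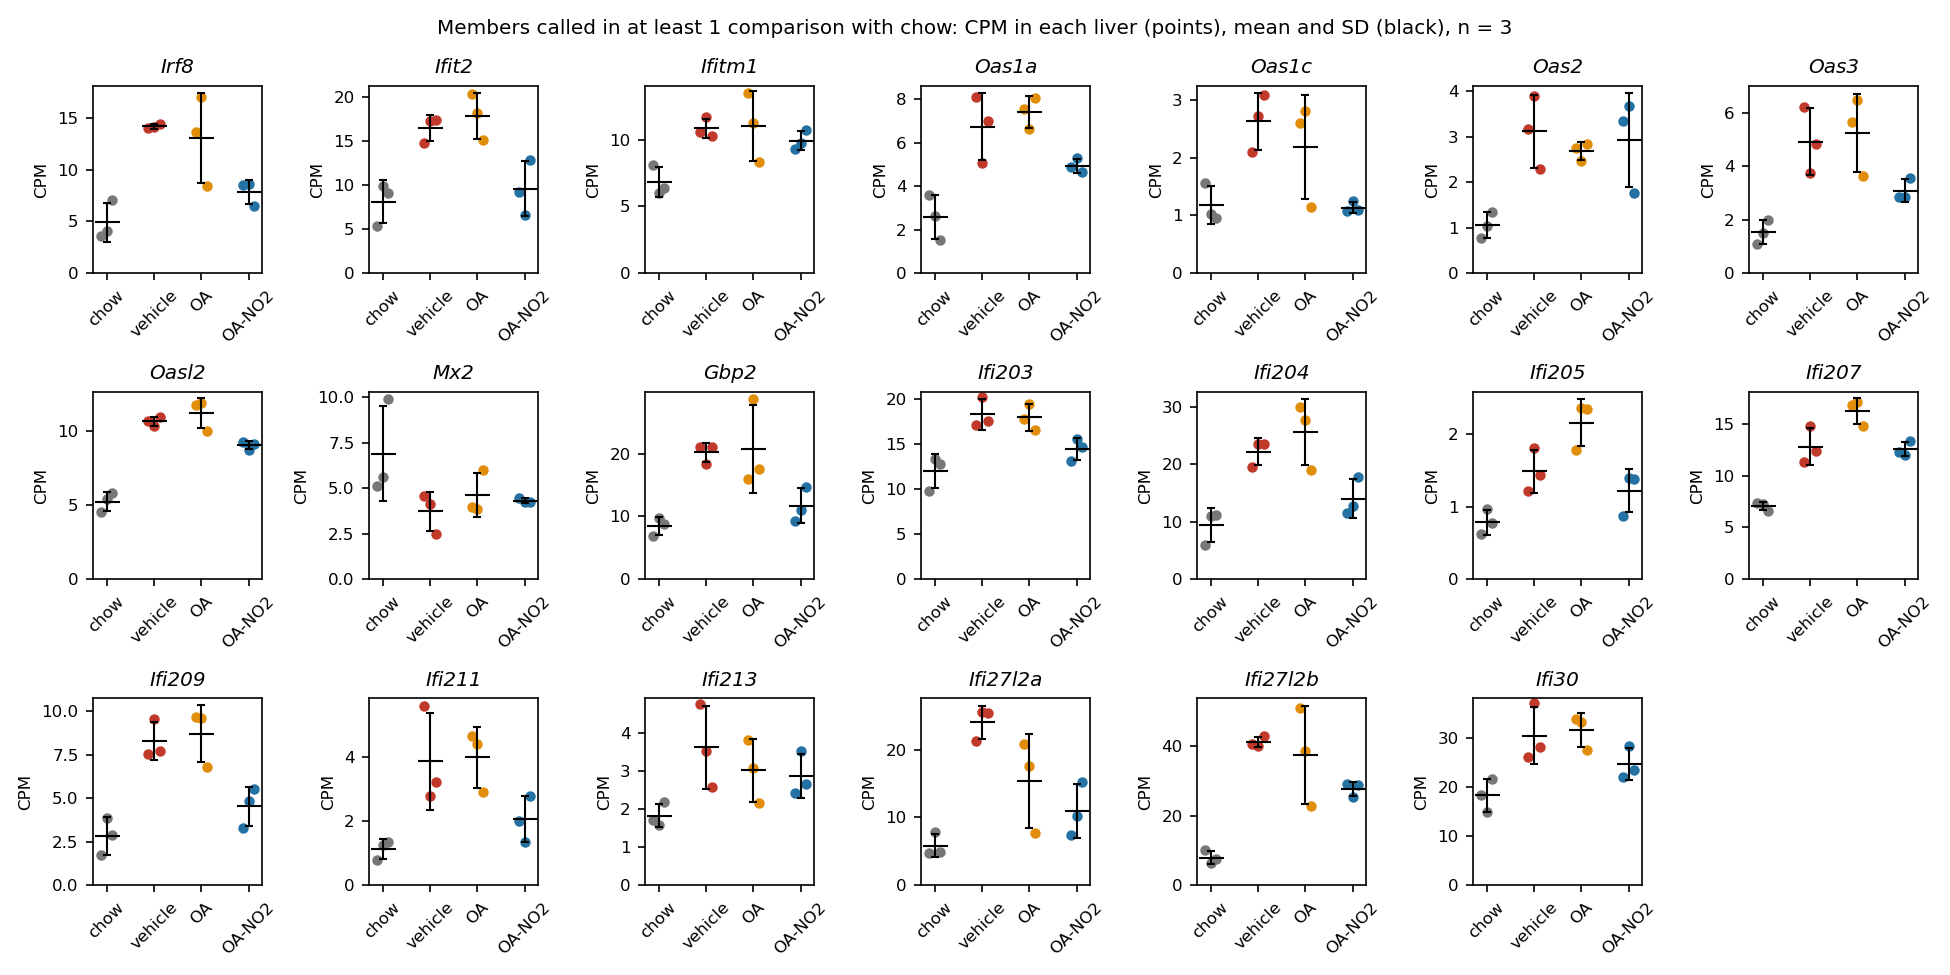
CPM of the 20 genes called in at least 1 comparison with chow, 1 panel each, with the y axis starting at 0. Points are livers, and black lines are the mean and SD of 3 livers per group. Ifi27l2b sits between 6.19 and 9.98 CPM in chow and between 40.0 and 42.9 CPM with vehicle, with the OA-NO2 livers between 25.4 and 29.0 CPM.

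Called and uncalled genes did not separate by the promoter core. The core was present in 8 of the 14 genes called higher that had a RefSeq window (57.1%) and in 17 of the 28 tested genes with a window that were not called (60.7%). The STAT-type core was present in 3 of the 14 (21.4%) and 6 of the 28 (21.4%). These shares describe the letters of the windows shown, and no binding was measured.

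The second comparison sets OA with the diet against chow. Here 17 of the 56 genes were called higher (30.4%) and 0 lower by edgeR, against 6.33% and 2.23% of all genes, and the median log2 fold change was 0.47 against -0.01. DESeq2 also called 0 lower, against 2.36% of all 24983 genes. In edgeR, 2 of the 56 were lower at an unadjusted p under 0.05. For that unadjusted threshold the share of all genes was not counted. Without OA replicate 3, edgeR called 1 lower, Irf3, against 5.6% of all genes. The comparison uses the same chow livers as the first comparison, so the sets of calls are not independent. Of the 18 genes called higher with vehicle, 16 were called with OA, and Ifi205 was added. Ifi27l2b had 50.9, 38.7 and 22.6 CPM with OA and was 4.85-fold above chow (2.28 ± 0.26, adjusted p = 0.000962). Oasl2 had 11.7, 11.8 and 9.995 CPM (1.08 ± 0.16, adjusted p = 0.0028), and Ifi207 had 16.9, 17.2 and 14.8 CPM (1.21 ± 0.15, adjusted p = 0.00206). In all 3 genes the OA livers lay above the chow livers.

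The calls of Gbp2, Ifi204, Ifi207, Ifi209, Ifi27l2b, Oas1a, Oas3 and Oasl2 between OA and chow held with each library left out in turn and in the other alternatives. Gbp2, with 16.0, 28.8 and 17.6 CPM, had a log2 fold change of 1.28 ± 0.24 (adjusted p = 0.00814). Ifi204, with 29.9, 27.7 and 19.0 CPM, had 1.42 ± 0.25 (adjusted p = 0.00613), and Ifi209, with 9.68, 9.59 and 6.80 CPM, had 1.57 ± 0.28 (adjusted p = 0.00662). In each, all OA livers were above all chow livers. Oas1a had 7.54, 6.61 and 8.07 CPM (1.59 ± 0.28, adjusted p = 0.00605). Oas3 had 5.66, 6.46 and 3.61 CPM (1.72 ± 0.30, adjusted p = 0.00662), again without overlap.

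The other 9 calls with OA were each lost on leaving out at least 2 of the 6 libraries, 1 at a time. Without chow replicate 1 the number of genes described here that were called higher was 9, against 2.45% of all genes. Without OA replicate 1 it was 10 (1.95% of all genes), and without OA replicate 2 it was 8 (2.17%). Irf8, with 13.7, 17.1 and 8.43 CPM (1.38 ± 0.28, adjusted p = 0.0107), was not called without chow replicate 2 (adjusted p = 0.053) or OA replicate 2 (0.057). Ifi27l2a had 20.9, 17.6 and 7.65 CPM, with OA replicate 3 inside the chow range of 4.68 to 7.78 CPM. Its log2 fold change of 1.39 ± 0.35 (adjusted p = 0.0274) was not called without chow replicate 1 (0.0996), chow replicate 3 (0.0903), OA replicate 1 (0.139) or OA replicate 2 (0.102), or with the 2 groups fitted alone (0.0575). Ifi205, which was not called with vehicle, had 1.78, 2.36 and 2.35 CPM against 0.624, 0.963 and 0.768 CPM in chow (1.41 ± 0.34, adjusted p = 0.0216). It was not called without chow replicate 1 (0.0732), chow replicate 3 (0.0677) or OA replicate 2 (0.0858). Ifi211 (1.76 ± 0.38, adjusted p = 0.0132) gave 0.0543 without chow replicate 1, 0.0605 without OA replicate 1 and 0.0559 without OA replicate 2. Ifit2 (1.11 ± 0.25, adjusted p = 0.0176) gave 0.0651, 0.0823 and 0.0652 without the same libraries. Ifi30 (0.79 ± 0.18, adjusted p = 0.0199) gave 0.0659 and 0.0772 without chow replicates 1 and 2, and 0.09 and 0.083 without OA replicates 1 and 2.

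Ifi203, Ifitm1 and Oas2 were the least firm of the calls between OA and chow. Oas2 (1.29 ± 0.35, adjusted p = 0.0362) lost its call whichever of the 6 libraries was left out, with adjusted p from 0.0526 without OA replicate 3 to 0.117 without OA replicate 1. Ifi203 (0.57 ± 0.15, adjusted p = 0.0362) and Ifitm1 (0.71 ± 0.20, adjusted p = 0.0395) kept their calls, with a library left out, only where it was OA replicate 3. Over the others, the adjusted p of Ifi203 ran from 0.0584 without chow replicate 2 to 0.149 without OA replicate 2, and that of Ifitm1 from 0.0519 without chow replicate 1 to 0.206 without OA replicate 1. Oas1c, Ifi213 and Mx2, called with vehicle, had 0.95 (adjusted p = 0.124), 0.72 (0.167) and -0.61 (0.212) with OA.

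With OA-NO2 and the diet, 3 of the 56 genes were called higher than in chow (5.36%) and none lower by edgeR, against 0.435% and 0.249% of all genes. At an unadjusted p under 0.05, 14 were higher and 4 lower. The share of all genes at that unadjusted threshold was not counted for this comparison, so no excess can be read from these counts. The median log2 fold change was 0.20 against 0.02 for all genes. Ifi27l2b had 29.0, 25.4 and 28.8 CPM, 3.60-fold above chow (1.85 ± 0.26, adjusted p = 0.0064). Ifi207 had 12.4, 12.1 and 13.4 CPM (0.84 ± 0.15, adjusted p = 0.0434), and Oasl2 had 9.21, 8.70 and 9.12 CPM (0.77 ± 0.16, adjusted p = 0.0464). All 3 genes were above every chow liver in every OA-NO2 liver.

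None of these 3 calls held with every library. Without chow replicate 2 or chow replicate 3 none of the genes described here was called higher, against 0.0741% and 0.0876% of all genes. Ifi27l2b then had an adjusted p of 0.056 and 0.0526. The number of these genes called higher was 1 without chow replicate 1, OA-NO2 replicate 1 or OA-NO2 replicate 3 (0.142%, 0.088% and 0.0808% of all genes). Ifi207 was not called without chow replicate 1, 2 or 3 (adjusted p = 0.0763, 0.101 and 0.0921), without OA-NO2 replicate 1 or 3 (0.092 and 0.0739) or with the 2 groups fitted alone (0.0889). Oasl2 lost its call whichever of the 6 libraries was left out (from 0.0698 without OA-NO2 replicate 2 to 0.128 without OA-NO2 replicate 1), with the 2 groups alone (0.132) or without the filter (0.0512). DESeq2 called 5 higher and 1 lower, against 1.55% and 1.07% of all 24983 genes, larger shares than in edgeR. The additional rises were Oas1a (edgeR adjusted p = 0.0971) and Oas2 (0.0695). The gene called lower there was Ifit1, with 16.5, 25.4 and 22.6 CPM against 31.0, 66.9 and 56.9 CPM in chow. Its groups did not overlap, and edgeR gave -1.27 ± 0.27 (adjusted p = 0.0516). Irf8 had 8.49, 8.60 and 6.46 CPM, and its log2 fold change over chow was 0.64 ± 0.28 (adjusted p = 0.24).

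**Figure D4:**
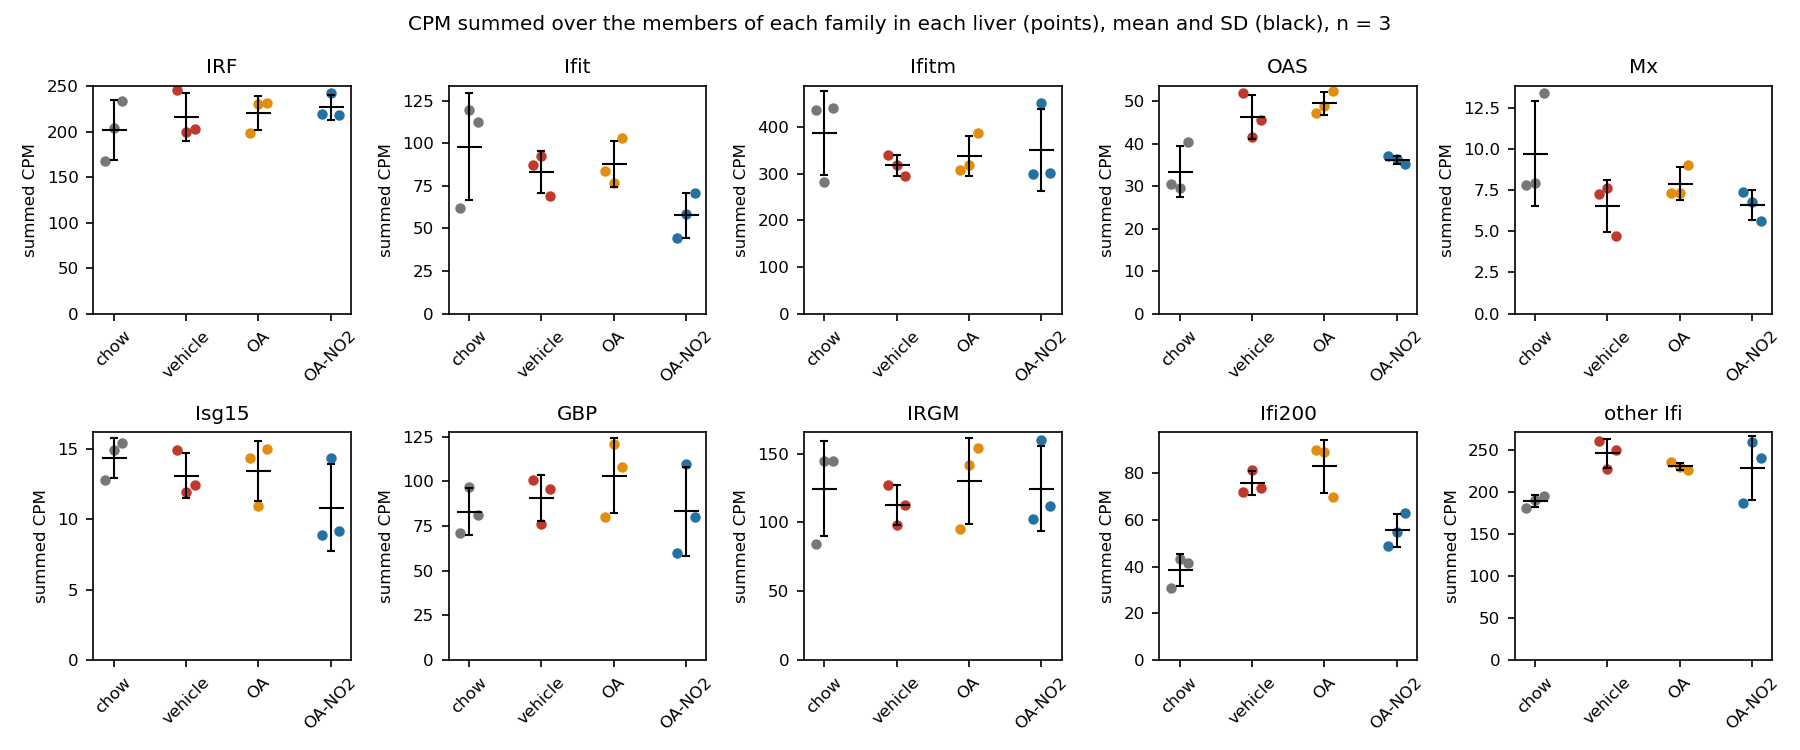
CPM summed over the genes of each family in each liver (y axis, from 0), with the mean and SD of 3 livers per group in black. Sums of the Ifi200 family lie between 30.7 and 43.1 CPM in chow, 72.1 and 81.5 in vehicle, 69.8 and 89.9 in OA, and 48.7 and 63 in OA-NO2 livers, while the IRF, IRGM and Ifitm sums overlap between all groups.

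The remaining comparisons are between the infused groups, which share diet, pump and PEG. They ask whether OA, OA-NO2, or the nitro group itself went with other levels of these genes at 5 mg/kg/day. The livers of each infused group serve 2 of the comparisons, so their values are given side by side and are not independent.

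Between OA and vehicle none of the 56 genes passed in edgeR or DESeq2 (0% of all genes in edgeR, and adjusted p from 0.975 for these 56). At an unadjusted p under 0.05, 2 of the 56 were higher and 0 lower, against 2.36% and 1.53% of all genes, and the median log2 fold change was 0.06 against 0.00. These were Ifi207 (0.35 ± 0.14, 95% interval 0.03 to 0.66) and Gbp2b (1.17 ± 0.52, 0.04 to 2.30). Intervals for genes called higher with vehicle than with chow show what differences the data allow. They ran from -0.24 to 0.39 for Oasl2, from -0.45 to 0.53 for Gbp2 and from -0.64 to 0.36 for Ifi27l2b. The lowest p of the other families went to Ifi27l2a (-0.64 ± 0.32), Ifitm6 (0.56 ± 0.36), Irf2 (0.22 ± 0.18), Oas1b (0.42 ± 0.38), Mx2 (0.31 ± 0.29), Irgm2 (0.27 ± 0.30) and Ifit1 (0.15 ± 0.27), with 0.03 ± 0.20 for Isg15. None of these intervals excluded 0.

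Between OA-NO2 and vehicle, none of the 56 genes passed in edgeR after adjustment over all genes. Of the 56, 41 had negative log2 fold changes, with a median of -0.30 against 0.02 for all genes. At an unadjusted p under 0.05, 13 were lower and 1 higher, against 8.51% and 7.25% of all genes. After adjustment 0 of the 56 and 0.0207% of all genes were called by edgeR. DESeq2 called 1 of the 56, Ifi27l2a, lower (adjusted p = 0.0445), against 0.64% of all 24983 genes. Ifi27l2a had 7.46, 10.2 and 15.2 CPM with OA-NO2 against 21.3, 25.6 and 25.4 CPM with vehicle. The groups did not overlap, and edgeR gave -1.14 ± 0.33 (95% interval -1.85 to -0.43, adjusted p = 0.166).

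Genes called between vehicle and chow share the vehicle livers with this comparison, so lower values for them here are given as a description. Irf8 had 8.49, 8.60 and 6.46 CPM with OA-NO2 against 14.1, 14.1 and 14.5 CPM with vehicle (-0.86 ± 0.26, adjusted p = 0.177). Gbp2 had 9.21, 11.1 and 14.7 CPM against 21.1, 18.4 and 21.1 CPM (-0.79 ± 0.23, adjusted p = 0.166). Ifit2 had 9.21, 6.63 and 12.9 CPM against 14.8, 17.3 and 17.4 CPM (-0.79 ± 0.24, adjusted p = 0.178). In none of these did the groups overlap, and none passed. Oas1c had 1.08, 1.24 and 1.09 CPM against 2.097, 2.72 and 3.09 CPM (-1.21 ± 0.35, adjusted p = 0.165), the lowest adjusted p of the 56. Ifi209 had 3.29, 4.82 and 5.50 CPM against 7.55, 9.54 and 7.73 CPM (-0.87 ± 0.26, adjusted p = 0.171), and all 9 tested Ifi200 genes were negative, Ifi207 least so (-0.03 ± 0.15). The single gene higher at an unadjusted p under 0.05 was Gbp2b, with 2.73, 11.2 and 4.83 CPM against 2.47, 1.33 and 2.33 CPM (1.61 ± 0.52, adjusted p = 0.184). The other families gave Isg15 (-0.28 ± 0.20), Mx1 (-0.30 ± 0.29), Irgm2 (0.21 ± 0.30) and Ifitm3 (0.17 ± 0.22) as their lowest p, all with intervals across 0.

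None of the other tested IRFs passed between OA-NO2 and vehicle. Irf1 and Irf5 were lower in value, without overlap between the groups in Irf1, and the others were higher. Log2 fold changes between OA-NO2 and vehicle were 0.28 ± 0.16 for Irf3, 0.21 ± 0.18 for Irf2, 0.18 ± 0.23 for Irf7, 0.11 ± 0.16 for Irf9, -0.31 ± 0.25 for Irf1 and -0.41 ± 0.27 for Irf5. All their intervals included 0.

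Between the fatty acids with and without the nitro group, values were mostly lower with OA-NO2 and none passed. The OA-NO2 livers are the same as in the comparison with vehicle, so this is not an independent repeat. Of the 56, 47 were negative, with a median of -0.36 against 0.00 for all genes. At an unadjusted p under 0.05, 15 were lower and 1 higher, against 6.76% and 5.27% of all genes. After adjustment, neither edgeR (0 of the 56 and 0.00691% of all genes) nor DESeq2 called any. Ifit2 had 20.3, 18.2 and 15.1 CPM with OA against 9.21, 6.63 and 12.9 CPM with OA-NO2 (-0.91 ± 0.24, 95% interval -1.43 to -0.38, adjusted p = 0.313). Ifi204 had 29.9, 27.7 and 19.0 CPM against 11.4, 12.8 and 17.8 CPM (-0.87 ± 0.24, -1.38 to -0.36, adjusted p = 0.313). Gbp2 had 16.0, 28.8 and 17.6 CPM against 9.21, 11.1 and 14.7 CPM (-0.83 ± 0.23, -1.33 to -0.34, adjusted p = 0.313). The groups were apart in all 3 genes, in Ifi204 and Gbp2 by little. Genes called between OA and chow, as these 3 were, share the OA livers with this comparison. Lower values for them here are therefore given as a description. Across the alternatives run, the adjusted p of Ifit2 ran from 0.0643 to 0.859 and that of Ifi204 from 0.0659 to 0.859.

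Oas3 (-0.77 ± 0.28), Irf8 (-0.74 ± 0.27), Ifi44 (-0.59 ± 0.22), Ifitm6 (-0.53 ± 0.37), Mx1 (-0.52 ± 0.29), Isg15 (-0.31 ± 0.20) and Irgm1 (-0.07 ± 0.21) had the lowest p of their families between OA-NO2 and OA. Irf3 was the gene higher at an unadjusted p under 0.05 (0.35 ± 0.16, adjusted p = 0.412). Ifi207, Oasl2 and Ifi27l2b were called in all comparisons with chow and did not pass between OA-NO2 and OA. Their intervals ran from -0.68 to -0.06 (adjusted p = 0.363), from -0.63 to 0.005 (0.419) and from -0.94 to 0.07 (0.471).

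**Figure D5:**
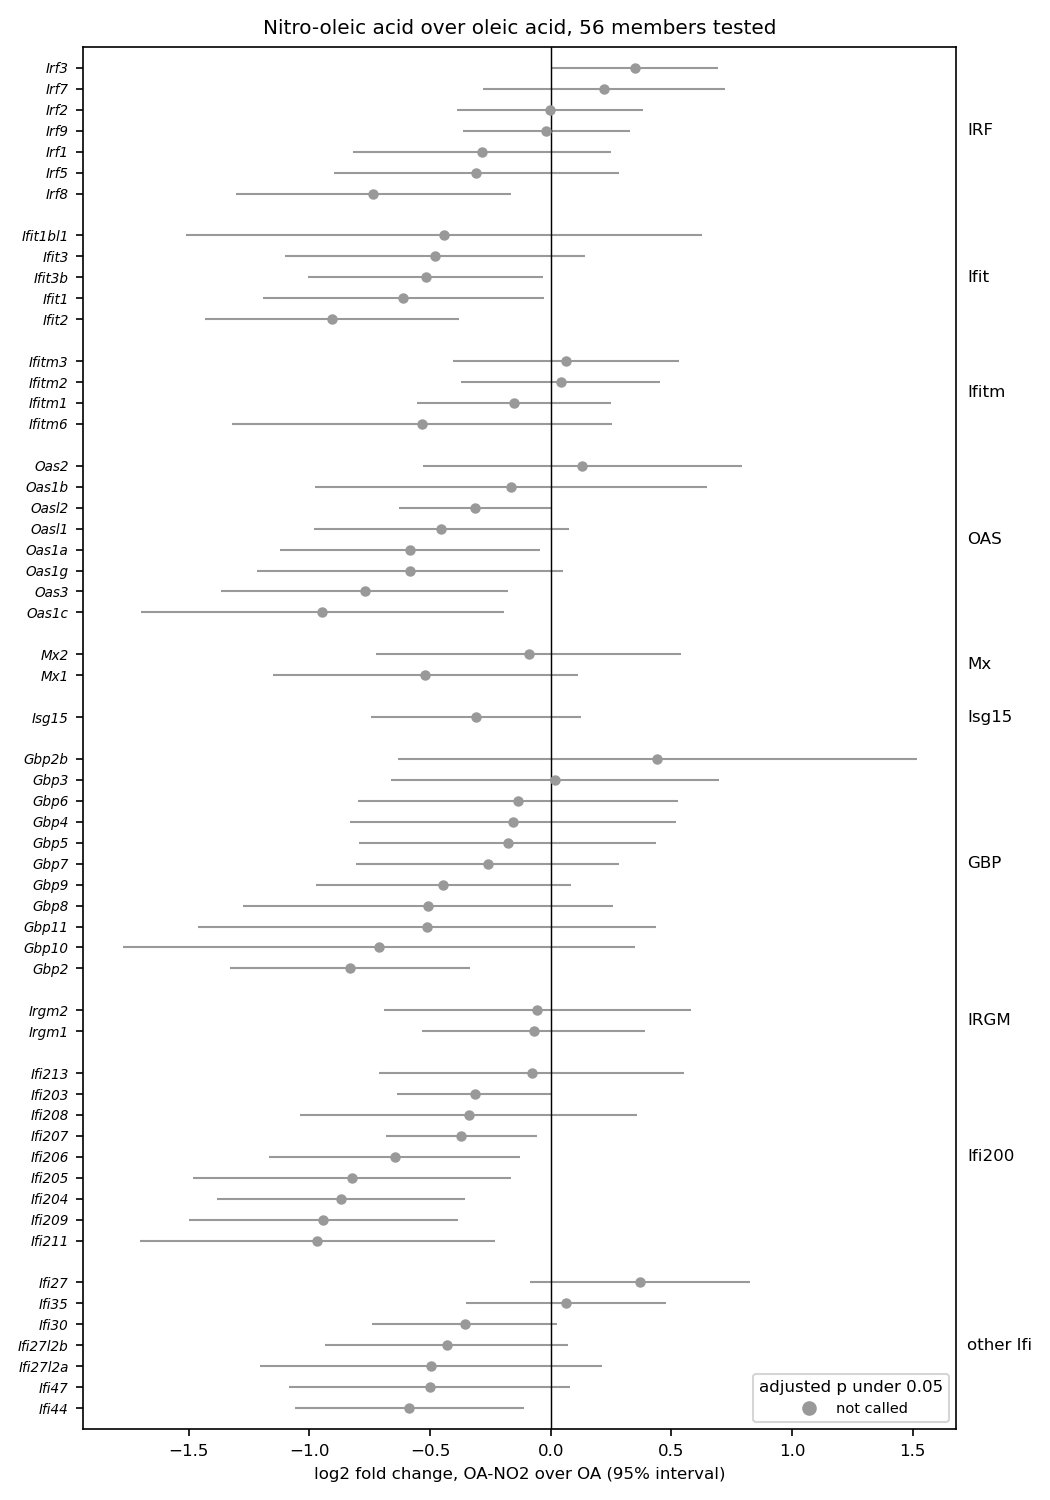
Log2 fold change of the 56 tested genes between OA-NO2 and OA (x axis, below 0 where OA-NO2 is lower), with 95% intervals as lines and rows grouped by family. 47 points lie below 0, from -0.97 for Ifi211, and none was called after adjustment.

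The genes upstream and beside these families were followed in 6 lists. Of the interferon ligands, Ifng and Ifnk were measured, both too low to test. Ifng was at or below 0.154 CPM in every liver. Each count below stands against 11.1% of all genes called higher with vehicle than with chow and 8.16% lower. Of 5 tested receptors, 1 was higher (20%) and 1 lower. Il10rb, the shared chain of the interferon-lambda and interleukin-10 receptors, rose from 5.62, 5.57 and 7.62 CPM to 11.8, 16.2 and 13.9 CPM (1.15 ± 0.25, adjusted p = 0.00984). Ifnar2, a chain of the type I receptor, fell from 41.5, 32.8 and 43.0 CPM to 27.3, 28.7 and 26.2 CPM (-0.51 ± 0.15, adjusted p = 0.028). The Ifnar2 fall turned to 0.01 with plain totals, and the call ended on leaving out chow replicate 1 (adjusted p = 0.0862), chow replicate 3 (0.0851), or vehicle replicate 1 (0.0646), 2 (0.0597) or 3 (0.0987). Ifnar1, the other chain, had -0.26 ± 0.17 (adjusted p = 0.286) and Ifngr1, of the interferon-gamma receptor, 0.47 ± 0.18 (adjusted p = 0.0819).

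Of 11 JAK-STAT transducers and brakes, 1 was called with vehicle (9.09%), near the share of all genes. Ptpn6, a phosphatase of blood cells, rose from 15.9, 15.3 and 20.9 CPM to 23.0, 24.1 and 24.3 CPM (0.45 ± 0.15, adjusted p = 0.0485), and leaving out any one of the libraries but chow replicate 3 ended that call (adjusted p from 0.0801 without vehicle replicate 1 to 0.165 without chow replicate 2). Stat2 had -0.02 ± 0.14 (adjusted p = 0.932). Usp18, the interferon-induced brake, had 0.12 ± 0.17 (adjusted p = 0.653), and Pias1 -0.34 ± 0.16 (adjusted p = 0.16). Stat3, the factor of interleukin-6 signalling, had -0.42 ± 0.23 (adjusted p = 0.223). No other gene of the list was called.

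Of 16 nucleic acid sensors and adaptors, 4 rose (25%): Aim2, Ikbke, Tlr7 and Tmem173. Tmem173, which encodes the adaptor STING, went from 2.65, 2.00 and 2.24 CPM to 4.66, 5.86 and 5.11 CPM (1.203 ± 0.24, adjusted p = 0.00576). Tlr7, a receptor for single-stranded RNA, went from 2.03, 2.75 and 2.37 CPM to 5.78, 5.65 and 6.63 CPM (1.31 ± 0.30, adjusted p = 0.0116). Both were without overlap. Ikbke, a kinase that activates IRF3, had 0.98 ± 0.25 (adjusted p = 0.0193), a call that ended without chow replicate 1 (0.0699), chow replicate 2 (0.0622) or vehicle replicate 3 (0.0753). Aim2, a DNA sensor, had 1.02 ± 0.30 (adjusted p = 0.0341), and each of the 6 libraries but chow replicate 3, left out alone, ended its call (up to 0.135 over the alternatives run).

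Of 34 other interferon-induced effectors, 6 rose with vehicle (17.6%) and none fell, and their median log2 fold change was 0.06. Ly6e, a membrane protein, went from 141, 127 and 173 CPM to 298, 260 and 346 CPM (1.03 ± 0.21, adjusted p = 0.00622). Sp100, a nuclear body protein, had 0.76 ± 0.15 (adjusted p = 0.00623) and Phf11b 1.60 ± 0.37 (adjusted p = 0.0121). Bst2, Epsti1 and Lgals3bp were the others, and the calls of Bst2 and Lgals3bp ended on leaving out any of vehicle replicates 1 and 3 or chow replicates 1 and 2, and that of Bst2 also without chow replicate 3 (with an adjusted p up to 0.134 and 0.131 over the alternatives run). Rsad2, which encodes the antiviral enzyme viperin, had 23.4, 25.5 and 31.8 CPM against 27.2, 24.2 and 16.1 CPM (-0.26 ± 0.23, adjusted p = 0.455). Of 20 tested interferon-gamma-induced genes, 3 rose (15%). Ciita, the master factor of MHC class II genes, was at or below 0.768 CPM in chow and at 2.84, 2.45 and 4.86 CPM with vehicle (2.84 ± 0.52, adjusted p = 0.00431). Cxcl9, a chemokine for T cells, went from 7.02, 11.8 and 7.04 CPM to 26.6, 28.9 and 28.4 CPM (1.68 ± 0.31, adjusted p = 0.00455). Wars had 0.75 ± 0.19 (adjusted p = 0.017), with the call lost without chow replicate 1 (0.065), chow replicate 2 (0.0604) or vehicle replicate 3 (0.0728). Cxcl10 had 0.93 ± 0.36 (adjusted p = 0.0834), and Cxcl9 and Cxcl10 are thus on different sides of the threshold.

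With OA, 4 of the 16 sensors (the same 4; 25%), 5 of the 34 effectors (14.7%) and 2 of the 20 interferon-gamma-induced genes (Ciita and Cxcl9; 10%) were higher than in chow, against 6.33% of all genes, with no receptor and no transducer called. Of these 11, Tlr7, Tmem173, Ciita and Cxcl9 were called whichever library was left out. With OA-NO2, no list gene was higher than in chow, and Ddx60, a helicase cofactor of RNA sensing named after its values were seen, was lower. Ddx60 had 10.9, 13.3 and 13.3 CPM in chow and 5.76, 6.84 and 8.58 CPM with OA-NO2 (-0.84 ± 0.17, adjusted p = 0.047), and leaving out any 1 of the 6 libraries ended the call (adjusted p up to 0.145 over the alternatives run). Between the infused groups no list gene was called by edgeR. Tmem173 had 6.42, 5.38 and 4.21 CPM with OA and 3.45, 3.37 and 2.60 CPM with OA-NO2 (-0.77 ± 0.22, adjusted p = 0.313). Cxcl9 had 15.9, 41.3 and 25.6 CPM with OA and 16.8, 26.8 and 21.1 CPM with OA-NO2, with wide overlap (-0.36 ± 0.29, adjusted p = 0.625).

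Markers of several cell types, immune and other, moved with these results. Summed over 11 genes, macrophage and monocyte markers stood at 87.3, 157 and 192 CPM in chow, 411, 633 and 536 CPM with vehicle, 749, 618 and 298 CPM in OA livers, and 285, 220 and 255 CPM in OA-NO2 livers. 9 of the 11 were called higher with vehicle than with chow, none was at 0, and between OA-NO2 and vehicle all 11 were negative with a median log2 fold change of -1.32. As for Irf8 and the summed Ifi200 genes, chow livers were lowest and OA-NO2 livers lay below the vehicle group and above chow, apart from 1 OA-NO2 liver inside the chow range for Irf8, and OA replicate 3 was the lowest OA liver in all 3 measures. Conventional dendritic cell markers ran from 8.27 to 11.7 CPM in chow, 18.4 to 26.7 with vehicle, 16.4 to 26.4 with OA and 11.5 to 21.6 with OA-NO2, with 2 of 6 tested genes called higher with vehicle. T and NK cell markers ran from 3.27 to 7.30, 9.70 to 12.1, 10.1 to 16.5 and 6.40 to 8.86 CPM in the same order of groups (3 of 13 called). Kupffer cell markers ran from 297 to 580, 662 to 807, 619 to 978 and 542 to 759 CPM, with 4 of 10 higher and 3 lower with vehicle. Between OA-NO2 and vehicle 5 of the 10 were positive and 5 negative, with a median log2 fold change of -0.08. Cd163, lower with vehicle than with chow, was called higher with OA-NO2 than with vehicle and than with OA. In those 2 comparisons 0.0207% and 0.00691% of all genes were called. Plasmacytoid dendritic cell markers ran from 158 to 188, 213 to 299, 210 to 235 and 207 to 326 CPM, and Klk1 and Cox6a2 were at 0 in chow. Of this list, Irf7 and Irf8 are members of the families described, and Bst2 is an interferon-induced effector counted above. Bst2 alone gave 88.1, 85.8 and 98.6 CPM in chow. The 2 of 5 tested genes called with vehicle were Bst2 and Irf8, so the list is not separate from the interferon-induced genes. Cholangiocyte markers ran from 29.7 to 46.2 CPM in chow, 78.8 to 513 with vehicle, 37.6 to 412.5 with OA and 53.9 to 100.3 with OA-NO2, with 6 of 7 tested called higher with vehicle and a median log2 fold change of -1.83 between OA-NO2 and vehicle. Stellate cell markers ran from 130.1 to 180.4, 204 to 331, 179 to 302 and 138.0 to 228 CPM in that order of groups (5 of 9 called, and -0.56 between OA-NO2 and vehicle). Markers of B and plasma cells (7 tested), neutrophils (4) and endothelium (8) had 0 called with vehicle by edgeR. At an unadjusted p under 0.05 there were 1, 1 and 3, with no share of all genes counted. Their median log2 fold changes were 1.06, 0.74 and -0.17 over chow, and -1.93, -0.91 and -0.05 between OA-NO2 and vehicle, where 0 were called. All 7 B and plasma cell genes were negative there. Vehicle replicate 1 held 313 summed CPM of them, against 78.1 and 43.1 in the other vehicle livers. Hepatocyte markers went the other way, from 140600 to 173600 CPM in chow to between 57280 and 77020 CPM with vehicle, with ranges of 68560 to 113500 CPM in OA livers and 85110 to 121300 CPM in OA-NO2 livers. The part of these cell markers in the changes of the interferon-induced genes was not tested.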

How the data were processed

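Liver RNA from 12 mice was sequenced with the KAPA mRNA HyperPrep kit as paired reads, per the labels' protocols. The submitters' processing notes name Trimmomatic 0.35, HISAT2 2.1.0, SAMtools 1.2, HTSeq and the build GRCm38. The authors deposited raw counts for 24983 genes. For annotation release, strand setting and multi-mapping reads, no statement is given in the sources used here. Symbols were found for 24914 of them, and rows without one held 0.0143% of counts. Coordinates and exon lengths are from GENCODE M21, promoters from RefSeq (GRCm38.p6).

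edgeR 4.0.16 (R 4.3.3) was run on all 12 libraries in 1 quasi-likelihood fit, with TMM scaling, its default filter (minimum count 10, minimum total 15; 14469 genes left), 8 residual degrees of freedom and Benjamini-Hochberg adjustment. The biological coefficient of variation was 0.226. Each SE is the log2 fold change divided by the root of F, which is approximate. Intervals are 95% (t, 13.5 degrees of freedom). Alternatives were RLE size factors, plain library sizes, no filter, the 2 groups alone, DESeq2 1.42.0 and each library left out. The script was tested on simulated data.

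Named with values were genes called in any comparison, all IRFs, the lowest p of each family between infused groups, and, per list, the 3 lowest p between vehicle and chow with 7 standing genes. Ifit1, Ifitm3, Gbp7, Mx1 and Ifi27 between vehicle and chow were added after their values were seen. Ear tags mark separate mice, and replicate numbers follow deposit order. Of the genes chosen and of the listed genes, 1 each is not reported here. The genes and lists were chosen with earlier results of these data known.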

Additional observations from a re-analysis of the deposited data

How the results depend on the processing

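With plain library sizes as the scaling, 31 members were then higher and 0 lower with vehicle than with chow, 28 higher with OA, and 9 higher and 1 lower with OA-NO2, where 38.1%, 25.2% and 7.6% of all genes were called higher, and the log2 fold change of Ifnar2 turned to 0.0107 between vehicle and chow. With plain library sizes, 1.71% of all genes were lower with vehicle than with chow and 0.194% with OA-NO2. With the 2 groups alone, 0 members were lower with vehicle and 1 was higher with OA-NO2 than with chow. The shares of all genes there were 8.06% and 0.27%. DESeq2 and the fit without the filter on low counts each called 2 lower between vehicle and chow. Of all 24983 genes, they called 5.45% and 3.71% lower. DESeq2 called 5 higher and 1 lower between OA-NO2 and chow, against 1.55% and 1.07% of all genes. It called 1 lower between OA-NO2 and vehicle, against 0.64% of all genes. Without the filter on low counts, 1 was lower with OA-NO2 than with chow, against 0.304% of all genes. Leaving out each library in turn gave 12 to 16 higher and 0 to 2 lower for vehicle over chow, 8 to 17 higher and 0 to 1 lower for OA over chow, and 0 to 2 higher and 0 to 1 lower for OA-NO2 over chow. In the same runs and order, the shares of all genes called higher were 5.24% to 9.46%, 1.95% to 9.43% and 0.0741% to 0.412%. The shares called lower were 2.88% to 6.6%, 0.385% to 5.6% and 0.0135% to 0.121%. No called member changed sign in any of the alternatives. Of the 19 members called between vehicle and chow, 12 were called in every alternative, as were 8 of 17 between OA and chow and 0 of 3 between OA-NO2 and chow.

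Over all genes, calls between vehicle and chow numbered 2786, and 1200 with vehicle replicate 3 left out, 1521 with vehicle replicate 2, 1392 with chow replicate 1 and 1457 with chow replicate 2. Between OA-NO2 and OA they numbered 1, and 130 without OA replicate 3, where no member was called. With 3 livers a group and a member such as Oas2 near 1 CPM in chow, small differences are not detectable. No paired analysis was possible because the labels give ear tags and no replicate numbers shared between groups.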
